A study of Ovis aries with 12 samples.

Results

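B2M, PSMB8, IRF1 and IDO1 are 4 genes of antigen presentation and of the response to interferon, chosen as the rows of the deposited count table that carry these names. They are 4 of 27054 rows, and all 4 passed the filter on low counts that left 13065 genes for testing. The series holds mRNA libraries of snap frozen right ventricular free wall from sheep, in 3 groups of 4 libraries. Shunt lambs were 4 to 6 weeks old and had received, by surgery as fetuses, a graft joining aorta and pulmonary artery, which gave them a left-to-right shunt from birth and a right ventricle under pressure load. Control lambs were 4 to 6 weeks old and carried no such shunt, and fetal lambs were sampled before birth at an age that the labels do not give. The labels do not say that the 4 libraries of a group stand for 4 animals. If they do not, the p-values reflect technical spread.

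Class I molecules show peptides from the inside of a cell to cytotoxic T cells. Each consists of a heavy chain and the invariant light chain beta-2-microglobulin, the product of B2M. The peptides are cut by the proteasome, in which PSMB8 replaces a catalytic subunit to form the immunoproteasome. IRF1 is a transcription factor that interferon gamma induces and that switches on genes of this pathway. IDO1 is an interferon-induced enzyme that degrades tryptophan along the kynurenine pathway and is known for restraining T cells.

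Total counts per library were 24944197 to 42774036 in shunt, 20041416 to 44946875 in control and 19111348 to 27330975 in fetal libraries. Mitochondrially encoded genes took 45.6% to 72.6% of them in shunt, 43.5% to 50.0% in control and 26.7% to 41.2% in fetal libraries. Within the shunt group the share was 72.6% in shunt 1, 71.4% in shunt 2, 54.6% in shunt 3 and 45.6% in shunt 4, so shunt 1 and shunt 2 stand apart and each result below is also given without them where that changes it. Levels are CPM, counts relative to library size as scaled by TMM, the trimmed mean of M values, and changes are log2 ratios relative to that scaling. Summed cardiomyocyte markers, 5 named of 19 (MB, MYL2, MYOZ2, NPPA and TPM1), stood at 19985 to 36177 CPM in shunt, 26216 to 33005 CPM in control and 20762 to 30517 CPM in fetal libraries. In such bulk tissue, fewer cells of a type and less RNA per cell cannot be told apart.

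All 4 genes were higher in shunt than in fetal libraries, and B2M was also higher in control than in fetal libraries. None of the 4 was called between shunt and control libraries, where PSMB8 came nearest with a level about 2.16 times that of controls. Calls required an adjusted p (Benjamini-Hochberg, over all 13065 genes) under 0.05 in the quasi-likelihood test of edgeR. In shunt against fetal libraries 9.16% of all genes were called higher and 6.51% lower, and 4 of these 4 were called higher. The 4 genes were chosen with earlier results of these data known, so the shares give scale and are no test of the set. As TMM-scaled CPM the 4 genes also did not overlap between the groups, as for 9.12% of all genes in that direction. Among all genes, 32.8% had an unadjusted p under 0.05. As CPM of all counts, without TMM, only B2M stayed apart. On that scale fetal 2 stood at 36.6 for PSMB8, 10.7 for IRF1 and 0.523 for IDO1. The lowest shunt libraries stood at 33.5, 5.05 and 0.451. In control against fetal libraries 2.66% of all genes were called higher and 2.5% lower, against 1 of the 4 higher. There 3 of the 4, all but IRF1, did not overlap, as for 9.18% of all genes, and 4 of the 4 had an unadjusted p under 0.05, as 18.4% of all genes did. As CPM of all counts PSMB8 and IDO1 overlapped there too, with the lowest control libraries at 31.0 and 0.400. In shunt against control libraries 2.3% of all genes were called higher and 1.69% lower, and 0 of the 4 were called by edgeR. An unadjusted p under 0.05 was reached by 1 of the 4, PSMB8, and by 28% of all genes. The Wald test of DESeq2 called PSMB8 alone of the 4. Over all genes that test called 1151 higher and 830 lower, against 301 and 221 by edgeR. The 3 comparisons share libraries, so their values are set side by side. The counts over all genes depend on the scaling. Over all genes, 1197 were called higher and 851 lower in shunt against fetal libraries, and 137 and 7796 where only library totals were used. The same split was 301 and 221 in shunt against control libraries, or 13 and 582 with library totals, and 348 and 327 in control against fetal libraries, or 99 and 706.

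**Figure D1:**
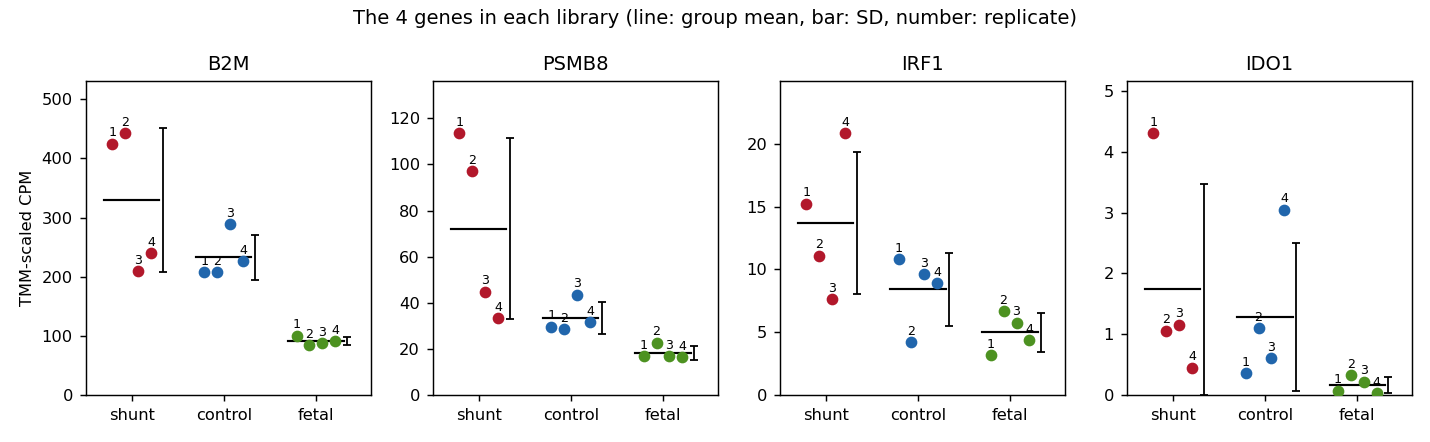
TMM-scaled CPM (vertical axes, linear from 0) of B2M, PSMB8, IRF1 and IDO1 in the 4 shunt, 4 control and 4 fetal libraries, numbered by replicate, with lines for group means and bars for the SD. B2M and PSMB8 are highest in shunt 1 and shunt 2, IRF1 is highest in shunt 4, and for B2M, PSMB8 and IDO1 the fetal libraries all lie below every other library.

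B2M (ENSOARG00000003782), the light chain shared by all class I molecules, stood at 425, 442, 209 and 239.6 CPM in shunt 1 to 4. It stood at 208.0, 207.7, 289 and 226 CPM in control 1 to 4, and at 100.3, 84.5, 87.2 and 90.8 CPM in fetal 1 to 4. Shunt 1 and shunt 2 lay above every control library, whereas shunt 3 and shunt 4 lay among the controls, and the fetal libraries lay below both other groups without overlap. The group means were 329 ± 122 CPM in shunt, 233 ± 38.5 CPM in control and 90.7 ± 6.92 CPM in fetal libraries (SD, n = 4 each).

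Against fetal libraries B2M was higher in shunt libraries by 1.86 in log2 CPM (SE 0.247, edgeR adjusted p = 0.000776), a fold of 3.63 with a 95% interval of 2.51 to 5.23. By p it ranked 35 among the 13065 genes of that comparison. In control against fetal libraries the log2 change was 1.36 (SE 0.244, edgeR adjusted p = 0.00688), a fold of 2.56 with an interval of 1.79 to 3.68. Both calls held in each of the 16 alternatives tried for each comparison. With library totals the changes were 0.70 and 0.93, beside a median of all genes of -1.02 and -0.41. Between shunt and control libraries the log2 change was 0.50 (SE 0.240, edgeR adjusted p = 0.187), with an interval from -0.01 to 1.01. Without shunt 1 and shunt 2 it was -0.072 (SE 0.168, edgeR adjusted p = 0.867). With library totals it was -0.23 (adjusted p = 0.437), beside a median of all genes of -0.59.

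PSMB8 (ENSOARG00000007622), the inducible catalytic subunit of the immunoproteasome, stood at 113.5, 97.1, 44.8 and 33.4 CPM in shunt 1 to 4. It stood at 29.7, 28.5, 43.5 and 31.6 CPM in control 1 to 4, and at 16.9, 22.7, 16.9 and 16.4 CPM in fetal 1 to 4. Shunt 1 to 3 lay above every control library and shunt 4 among them, and the highest fetal library, fetal 2, lay below the lowest control. Means were 72.2 ± 39.1 CPM in shunt, 33.3 ± 6.90 CPM in control and 18.2 ± 2.99 CPM in fetal libraries (SD, n = 4 each).

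Shunt libraries were higher in PSMB8 than fetal ones by 1.98 in log2 CPM (SE 0.330, edgeR adjusted p = 0.00278), a fold of 3.95 with an interval of 2.42 to 6.44. The change was 1.08 without shunt 1 and shunt 2 (adjusted p = 0.00564) and 0.75 with library totals (adjusted p = 0.0263). Against control libraries the shunt libraries stood at 1.11 in log2 CPM (SE 0.321, edgeR adjusted p = 0.0582), with an interval of 0.43 to 1.80. This value turned on single libraries. It was 1.28 without shunt 3 (edgeR adjusted p = 0.0251) and 1.35 without shunt 4 (adjusted p = 0.00947), which passed. These fits called 1784 and 2169 genes, against 522 with all 12 libraries. Not called were 0.80 without shunt 1 (adjusted p = 0.142), 0.92 without shunt 2 (adjusted p = 0.158) and 0.21 without both (adjusted p = 0.639). Nor was PSMB8 called without any single control library, at 1.04 to 1.26 (adjusted p = 0.0563 to 0.161). In control against fetal libraries PSMB8 stood at 0.87 (SE 0.321, edgeR adjusted p = 0.146) with no overlap between the groups. Fitted without shunt 1 and shunt 2, the same comparison gave 0.88 (SE 0.168, edgeR adjusted p = 0.00474).

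IRF1 (ENSOARG00000015078), the interferon-induced transcription factor, stood at 15.2, 11.1, 7.63 and 20.8 CPM in shunt 1 to 4. It stood at 10.8, 4.22, 9.60 and 8.91 CPM in control 1 to 4, and at 3.16, 6.66, 5.76 and 4.34 CPM in fetal 1 to 4. The lowest shunt library, shunt 3, lay above every fetal library and below 3 of the 4 controls, and control 2 lay among the fetal libraries. As CPM of the counts outside mitochondrially encoded genes, shunt 3 stood at 12.9, below fetal 2 at 14.6. Means were 13.7 ± 5.68 CPM in shunt, 8.39 ± 2.89 CPM in control and 4.98 ± 1.55 CPM in fetal libraries (SD, n = 4 each).

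The log2 change of IRF1 in shunt against fetal libraries was 1.46 (SE 0.349, edgeR adjusted p = 0.0139), a fold of 2.76 with an interval of 1.65 to 4.63. It was 1.51 without shunt 1 and shunt 2 (adjusted p = 0.0470). With library totals it was 0.52 and not called (adjusted p = 0.300), beside a median of all genes of -1.02. Between shunt and control libraries it stood at 0.70 (SE 0.342, edgeR adjusted p = 0.193), with an interval from -0.03 to 1.43, and at 0.74 without shunt 1 and shunt 2 (adjusted p = 0.412). IRF1 in control against fetal libraries stood at 0.76 (SE 0.344, edgeR adjusted p = 0.251), with an interval of 0.03 to 1.50.

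IDO1 (ENSOARG00000002251), which opens tryptophan breakdown, was read at low counts throughout. Shunt 1 to 4 held 63, 12, 38 and 12 counts, control 1 to 4 held 18, 24, 22 and 90, and fetal 1 to 4 held 3, 10, 5 and 1. Scaled to library size these were 4.30, 1.06, 1.15 and 0.450 CPM in shunt, 0.360, 1.10, 0.607 and 3.05 CPM in control and 0.0706, 0.325, 0.220 and 0.0293 CPM in fetal libraries. On this scale every fetal library lay below every library of the other groups, while shunt and control libraries overlapped, with shunt 1 and control 4 above the rest. As CPM of all counts, without TMM, fetal 2 at 0.523 lay above control 1 at 0.400, shunt 4 at 0.451 and shunt 2 at 0.481.

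Summed over libraries and scaled by library size, IDO1 in shunt libraries was 10.0 times that in fetal libraries (125 and 19 counts, exact 95% interval for counting error 6.14 to 17.2). The fitted log2 change was 3.44 (SE 0.900, edgeR adjusted p = 0.0215). The call was lost without fetal 1 (3.18, adjusted p = 0.0689), without fetal 4 (3.10, adjusted p = 0.0651), without shunt 1 (2.48, adjusted p = 0.0689) and without both shunt 1 and shunt 2 (2.34, adjusted p = 0.126). For control against fetal libraries the ratio of sums was 7.67 (154 and 19 counts, interval 4.75 to 13.1), and the log2 change of 3.00 was not called (SE 0.888, edgeR adjusted p = 0.0680). Of the 154 control counts 90 came from control 4, without which the change was 2.11 (adjusted p = 0.259), and it was 3.67 without fetal 2 (adjusted p = 0.0883). Between shunt and control libraries IDO1 stood at 0.43 (SE 0.770, edgeR adjusted p = 0.747), with an interval from -1.21 to 2.08, and at -0.53 without shunt 1 (adjusted p = 0.706).

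**Figure D2:**
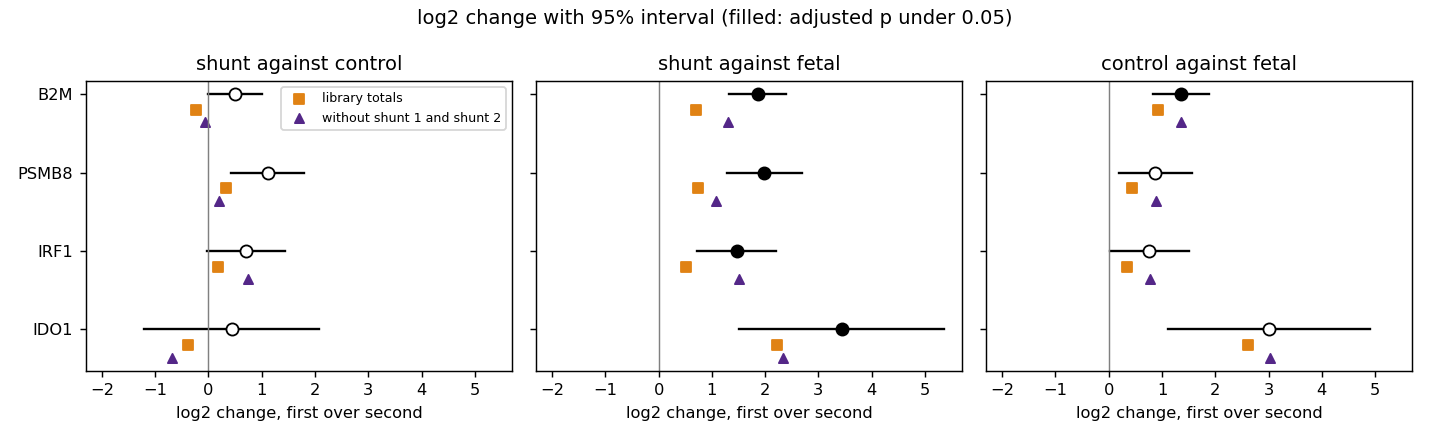
Log2 changes (horizontal axes, first group over second) of the 4 genes in the 3 comparisons, with 95% intervals as lines, filled circles at an edgeR adjusted p under 0.05, squares for library totals and triangles for the fit without shunt 1 and shunt 2. All 4 circles are filled in shunt against fetal and only that of B2M in control against fetal, and in shunt against control the squares and triangles of B2M and IDO1 lie below 0.

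The spread among libraries rose in this order of genes. The biological coefficient of variation that edgeR fitted was 25.7% for B2M, 32.4% for PSMB8, 34.8% for IRF1 and 74.2% for IDO1, against a median of 29.3% over all genes tested. Within groups, B2M varied least in fetal libraries, where the SD was 7.62% of the mean, against 37.0% in shunt and 16.5% in control libraries. PSMB8 varied by 54.2% in shunt, 20.7% in control and 16.4% in fetal libraries. In both genes the large spread of the shunt group came from shunt 1 and shunt 2.

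These 2 libraries are also those with the largest mitochondrial share. As CPM of all counts, without TMM, B2M stood at 239, 201, 161 and 240.3 in shunt 1 to 4, at 226 to 276 in control and at 99.3 to 156 in fetal libraries. On that scale shunt 2 and shunt 3 lay below every control library, and both older groups still lay above the fetal one. As CPM of the counts outside mitochondrially encoded genes, B2M stood at 871, 704, 354 and 442 in shunt 1 to 4, at 416 to 551 in control and at 169 to 221 in fetal libraries. PSMB8 as CPM of all counts stood at 63.7, 44.2, 34.5 and 33.5 in shunt 1 to 4, at 31.0 to 41.5 in control and at 19.3 to 36.6 in fetal libraries. Fetal 2 then lay among the controls and above shunt 3 and shunt 4. As CPM of the counts outside mitochondrially encoded genes, PSMB8 stood at 232, 154, 75.9 and 61.6 in shunt 1 to 4, at 58.0 to 83.0 in control and at 32.8 to 49.9 in fetal libraries. Shunt 1 and shunt 2 thus led for PSMB8 under all 3 scalings and for B2M under 2 of them. TMM fitted without the mitochondrially encoded genes changed no call of the 4 genes.

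**Figure D3:**
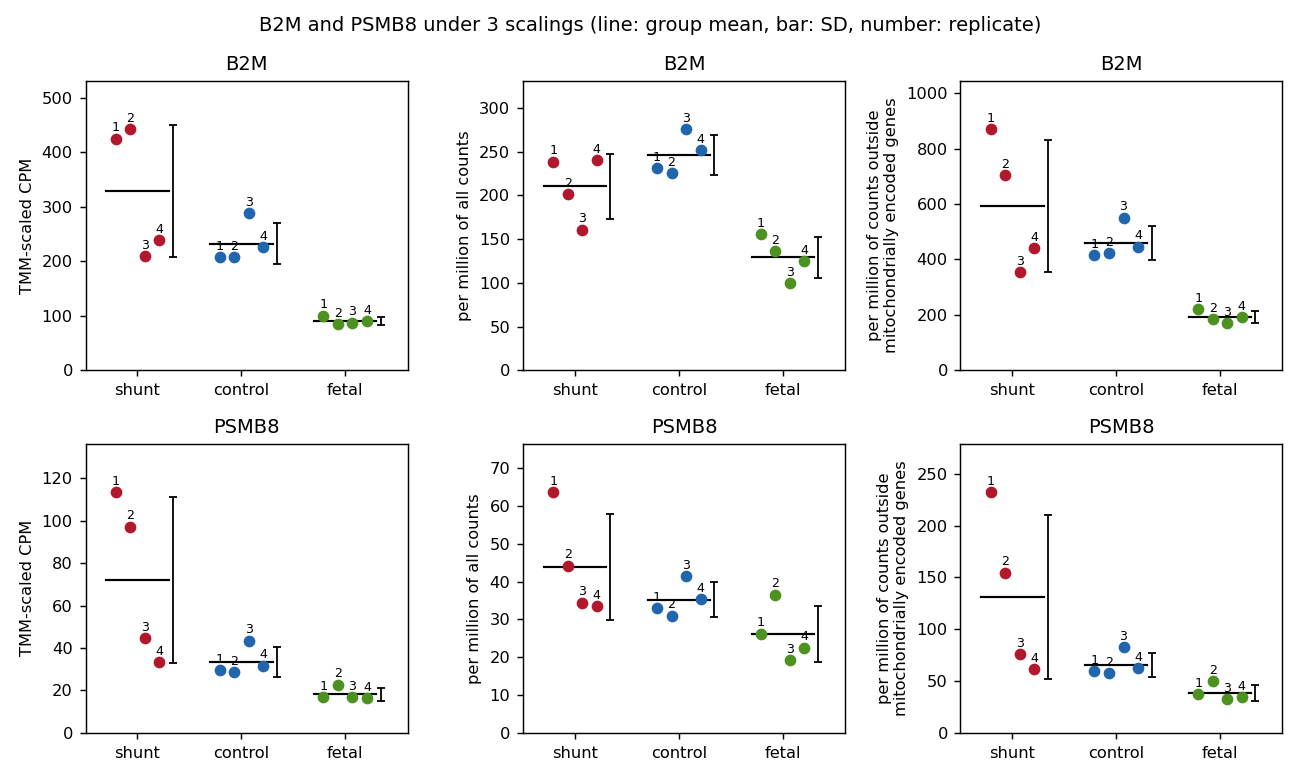
B2M (top) and PSMB8 (bottom) in the 4 shunt, 4 control and 4 fetal libraries as TMM-scaled CPM, CPM of all counts and CPM of the counts outside mitochondrially encoded genes (vertical axes, linear from 0), with lines for means and bars for the SD. PSMB8 in shunt 1 is the highest library in each of its 3 panels, while B2M in shunt 1 and shunt 2 lies within or below the control range as CPM of all counts.

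Ratios of counts within a library are free of any scaling, and they describe how far the genes moved together. B2M had 3.75, 4.56, 4.67 and 7.18 times the counts of PSMB8 in shunt 1 to 4. The ratio was 6.64 to 7.29 in the 4 control libraries and 3.72 to 5.93 in the 4 fetal libraries. Control libraries thus held a narrow range that lay above all fetal libraries, and of the shunt libraries shunt 4 lay in it and the other three lay below it. The ratio of B2M to IRF1 was 27.9, 39.9, 27.4 and 11.5 in shunt 1 to 4, 19.2 to 49.2 in control and 12.7 to 31.8 in fetal libraries, which overlap. PSMB8 had 7.45, 8.75, 5.87 and 1.60 times the counts of IRF1 in shunt 1 to 4, against 2.74 to 6.75 in control and 2.94 to 5.36 in fetal libraries. Shunt 4 had the lowest ratio to IRF1 of all 12 libraries for both genes. No test was made of these ratios.

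**Figure D4:**
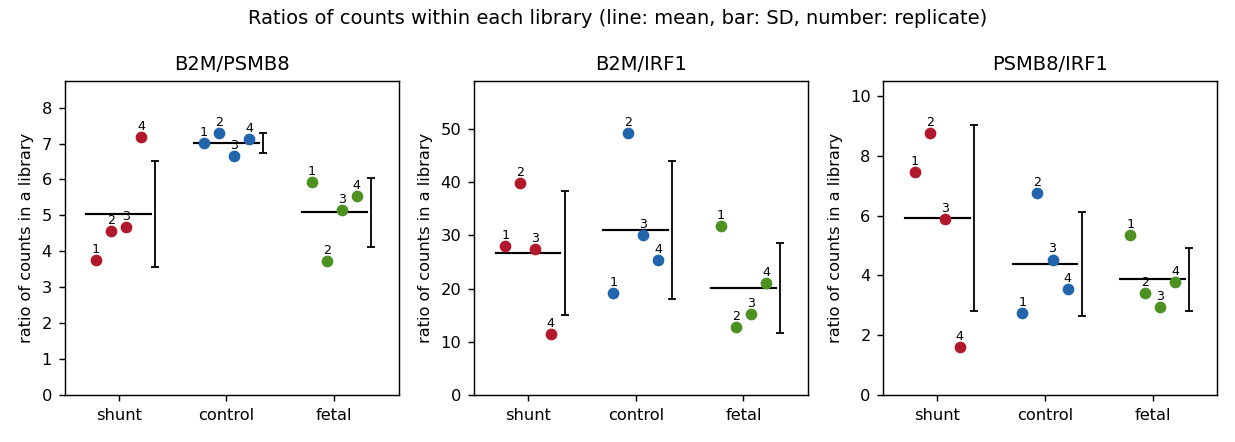
Ratios of the counts of B2M to PSMB8, B2M to IRF1 and PSMB8 to IRF1 within each of the 4 shunt, 4 control and 4 fetal libraries (vertical axes, linear from 0), with lines for means and bars for the SD. The B2M to PSMB8 ratio lies between 6.64 and 7.29 in control libraries and between 3.72 and 5.93 in fetal ones, and shunt 4 is lowest in both ratios to IRF1.

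Other genes of the pathway were taken from 8 lists, of whose symbols few had a name in the table. Of the class I list 5 of 22 symbols were named and tested. In shunt against fetal libraries 2 of the 5, B2M and TAPBP, were called higher, as 9.16% of all genes were, and 0 lower. The median log2 change of the 5 was 0.13 against -0.01 over all genes. TAPBP encodes tapasin, which loads peptides onto class I molecules, and stood at 83.1 ± 10.3 CPM in shunt and 58.0 ± 7.21 CPM in fetal libraries (SD, n = 4 each, log2 change 0.52, edgeR adjusted p = 0.0370). Its call was lost without fetal 1, fetal 3, fetal 4, shunt 1 or shunt 2 (adjusted p = 0.106, 0.0573, 0.0982, 0.0690 and 0.0739). With library totals the change was -0.55 (adjusted p = 0.0454), beside a median of all genes of -1.02. PDIA3, its partner in the loading complex, stood at -0.08 (adjusted p = 0.798). CD1D and FCGRT, whose products also pair with B2M to present lipids and to bind IgG, stood at 0.13 and -0.21 in shunt against fetal libraries (adjusted p = 0.807 and 0.599) and at -0.45 and -0.06 in control against fetal libraries (adjusted p = 0.481 and 0.940). CD1D and FCGRT stood at 0.58 and -0.15 in shunt against control libraries (edgeR adjusted p = 0.234 and 0.727), beside 0.50 for B2M. Within the shunt group CD1D stood at 65.6, 49.8, 20.1 and 33.7 CPM in shunt 1 to 4. In shunt against control libraries 0 of the 5 were called, with a median of 0.46 against 0.01 over all genes. Of these, TAPBP stood at 0.46 (edgeR adjusted p = 0.0864) and had an unadjusted p under 0.05, and its libraries did not overlap, as for 6.06% of all genes in that direction. Only B2M was called in control against fetal libraries, with a median of 0.06 against -0.0023.

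Among proteasome genes PSMB8 was the only tested one of 7 in the list of the immunoproteasome and its activators. Of 31 constitutive subunits PSMA6 and PSMD4 were tested. PSMA6, a ring subunit present in both forms of the proteasome, was higher in shunt libraries at 191 ± 68.3 CPM against 80.6 ± 14.4 CPM in fetal libraries (SD, n = 4 each, log2 change 1.24, edgeR adjusted p = 0.00393). With library totals this was 0.14 and not called (adjusted p = 0.563), beside a median of all genes of -1.02. PSMD4, a receptor for ubiquitin in the proteasome cap, stood at 0.49 (adjusted p = 0.0745). In shunt against control libraries PSMA6 and PSMD4 stood at 0.69 and 0.30 (adjusted p = 0.0780 and 0.281), beside 1.11 for PSMB8, and in control against fetal libraries at 0.55 and 0.19 (adjusted p = 0.202 and 0.625), beside 0.87. PSMA6 had an unadjusted p under 0.05 in both comparisons, as 28% and 18.4% of all genes did. Its libraries overlapped in neither, as for 6.06% and 9.18% of all genes in that direction. Those of PSMB8 overlapped between shunt and control.

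Among interferons, their receptors, kinases and factors, IRF1 was called higher in shunt against fetal libraries, as given above. IRF2, which competes with IRF1 for the same sites, stood at -0.29 there (edgeR adjusted p = 0.325), beside 1.46 for IRF1. IFNAR1 and IFNAR2, the chains of the receptor for type I interferons, stood at -0.47 and 0.52 (adjusted p = 0.130 and 0.240). In shunt against control libraries IFNAR1 and IFNAR2 stood at -0.48 and 0.90 (edgeR adjusted p = 0.155 and 0.0809), both with an unadjusted p under 0.05, and IRF2 stood at -0.34. None of these was called in that comparison or in control against fetal libraries. IFNG, the gene of interferon gamma, had 2 counts over all 12 libraries, both in shunt 3, and was not tested.

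The interferon-induced list had 4 tested genes of 54 symbols, and IDO1 was the 1 called, in shunt against fetal libraries. ISG15, a ubiquitin-like modifier, and the antiviral GTPases MX1 and MX2 stood at 0.19, -0.40 and -0.48 there (edgeR adjusted p = 0.839, 0.605 and 0.618), beside 3.44 for IDO1. In control against fetal libraries they stood at -0.36, -0.24 and -0.32, and in shunt against control libraries at 0.55, -0.15 and -0.16, with 0 called and none at an unadjusted p under 0.05. Medians over the 4 genes were -0.10 in shunt against fetal, 0.14 in shunt against control and -0.28 in control against fetal libraries. IDO1 was also the only named gene of 17 on the list of tryptophan enzymes. On the class II list DQA, a chain of a peptide receptor with close relatives, and IFI30, an interferon-induced lysosomal reductase, stood at 0.65 and 0.62 in shunt against fetal libraries and at -0.34 and 0.72 in shunt against control libraries. Control against fetal libraries gave 0.98 and -0.10, with no call in any comparison and DQA at an unadjusted p under 0.05 in the last. Of 40 cytokine and receptor symbols CXCR4, IL15, IL18 and IL1B were tested and none was called, with medians of 0.28, -0.11 and 0.26 in shunt against fetal, shunt against control and control against fetal libraries. IL1B, which encodes an inflammatory cytokine, had an unadjusted p under 0.05 in shunt against control libraries, as 28% of all genes did, at 3.14 (edgeR adjusted p = 0.0743). Of its 112 shunt counts 92 came from shunt 4, and the control libraries held 17 in sum.

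**Figure D5:**
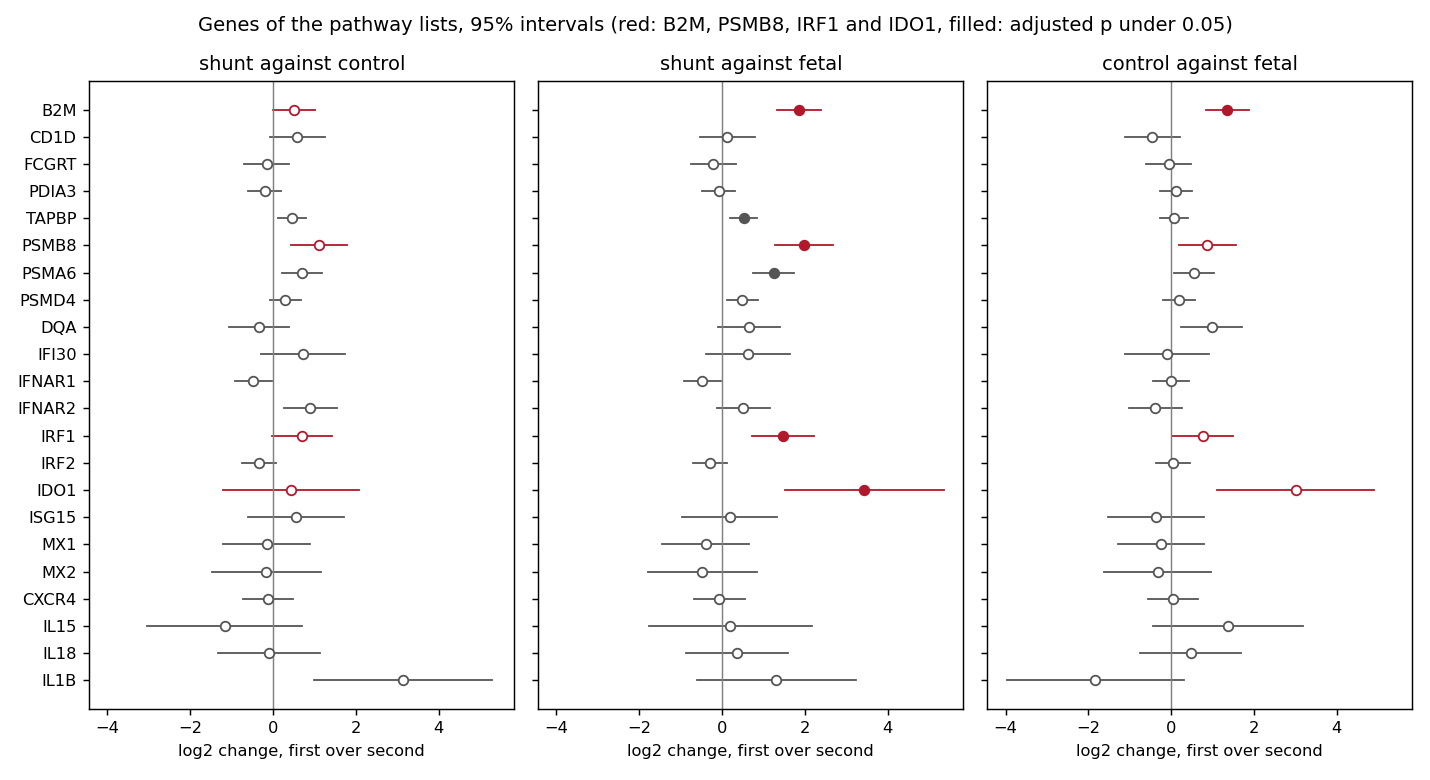
Log2 changes (horizontal axes, first group over second) with 95% intervals of the genes of the pathway lists that the text names, in the 3 comparisons, with B2M, PSMB8, IRF1 and IDO1 in red and filled circles at an edgeR adjusted p under 0.05. Filled circles are B2M, TAPBP, PSMB8, PSMA6, IRF1 and IDO1 in shunt against fetal and B2M in control against fetal, and none in shunt against control.

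Markers of other cell types were read beside these results, leukocytes first, which carry much of the antigen presentation machinery. Of 20 macrophage, monocyte and dendritic cell markers 6 were named, and their summed level was 10.5 to 24.8 CPM in shunt, 15.0 to 27.1 CPM in control and 5.72 to 14.0 CPM in fetal libraries, most of it from MRC1, a scavenger receptor of resident macrophages. None of the 3 tested was called, and MRC1 stood at 0.97 in shunt against fetal (edgeR adjusted p = 0.0584) and at 1.09 in control against fetal libraries (adjusted p = 0.0735). CD80, a ligand that activates T cells, was at 0 counts in all fetal libraries. Of 26 T and NK cell markers 10 were named, summing to 2.55 to 4.16 CPM in shunt, 1.94 to 4.61 CPM in control and 1.93 to 4.69 CPM in fetal libraries. Among these, CD28 had 3 counts in shunt 3 and 0 in every other library. One of the 5 tested, GNLY, a granule protein of cytotoxic lymphocytes, was called higher in shunt against fetal libraries (log2 change 3.16, edgeR adjusted p = 0.0286) and in control against fetal libraries (3.32, adjusted p = 0.0417). Both calls rest on 9 fetal counts and were lost without any single fetal library, the first also without shunt 3 (2.45, adjusted p = 0.0717) and the second also without any single control library. ITGB2, the 1 named of 5 pan-leukocyte markers, stood at 0.517 to 1.42 CPM in shunt, 0.459 to 1.42 CPM in control and 0.557 to 0.923 CPM in fetal libraries. CR2, the 1 named of 10 B cell markers, stood at 2.53, 1.50, 0.0912 and 0.225 CPM in shunt 1 to 4, on 37, 17, 3 and 6 counts. Its range was 0.321 to 0.700 CPM in control and 0.130 to 0.424 CPM in fetal libraries.

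Markers of neutrophils and mast cells, 2 named of 12, summed to 0 to 0.137 CPM in shunt, 0.400 to 1.61 CPM in control and 0.682 to 2.02 CPM in fetal libraries. TPSB2, a tryptase of mast cell granules, was called lower in shunt than in control libraries (2 and 77 counts, ratio 0.0417, counting interval 0.00496 to 0.156, edgeR adjusted p = 0.0386) and lower in shunt than in fetal libraries (2 and 183 counts, ratio 0.0166, interval 0.00200 to 0.0609, adjusted p = 0.00308). The first of these calls was lost without control 1, control 2, control 4, shunt 1 or shunt 2 (adjusted p = 0.0759, 0.110, 0.120, 0.0583 and 0.0880). Summed endothelial markers, 5 named of 16, stood at 55.0 to 152 CPM in shunt, 68.0 to 89.0 CPM in control and 109.5 to 121 CPM in fetal libraries, with none called. SELE had 4 counts over the shunt libraries and 0 in all control and fetal libraries.

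Fibroblast and matrix markers, 4 named of 12, summed to 494 to 971 CPM in shunt, 690 to 1018 CPM in control and 509 to 693 CPM in fetal libraries. Called higher were 1 of the 4 in shunt against control and 2 in shunt against fetal libraries, as 2.3% and 9.16% of all genes were. Control against fetal libraries had 1 called higher and 1 lower, beside 2.66% and 2.5% of all genes. TIMP1, an inhibitor of matrix metalloproteinases, was called higher in shunt libraries, at 40.0 ± 9.77 CPM, than in control libraries, at 6.94 ± 1.90 CPM (SD, n = 4 each, log2 change 2.53, edgeR adjusted p = 0.000209), and ranked 1 by p in that comparison. TIMP1 was also called higher in shunt than in fetal libraries (1.75, edgeR adjusted p = 0.000527), but not with library totals (0.76, adjusted p = 0.0589). TIMP3, of the same family, was called higher in shunt against fetal (1.46, edgeR adjusted p = 0.00760) and in control against fetal libraries (1.57, adjusted p = 0.0106). Neither TIMP3 call held with library totals (adjusted p = 0.294 and 0.0579), nor the first without shunt 1 and shunt 2 (1.22, adjusted p = 0.0607). CCN2, a matrix-associated growth factor gene, was called lower in control than in fetal libraries, at 2.47 ± 1.07 CPM against 30.8 ± 16.5 CPM (SD, n = 4 each, log2 change -3.63, edgeR adjusted p = 0.0122). DCN, the gene of the matrix proteoglycan decorin, was not called in any comparison.

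Of the 5 cardiomyocyte markers MB, the gene of myoglobin, was called, in control against fetal libraries at 9517 ± 539 CPM and 4610 ± 937 CPM (SD, n = 4 each, log2 change 1.05, edgeR adjusted p = 0.0218). The MB call was lost with library totals (0.66, adjusted p = 0.209) and without control 1, control 3, control 4, fetal 1, fetal 2 or fetal 4 (adjusted p = 0.0522 to 0.0837). NPPA, the gene of atrial natriuretic peptide, stood at 69.2, 142, 3589 and 9.85 CPM in shunt 1 to 4, against 0.689 to 49.7 CPM in control and 60.6 to 373 CPM in fetal libraries, and its log2 change of 5.76 in shunt against control libraries was not called (edgeR adjusted p = 0.0895). MYL2, MYOZ2 and TPM1, genes of the contractile apparatus, were not called in any comparison. The part of these cell types in the levels of the 4 genes was not tested.

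The patterns most like each gene were sought among 473 other tested genes with a symbol, as the smallest root mean square difference between log2 CPM values centred on their mean over the 12 libraries. B2M and PSMB8 differed from each other by 0.34 on this measure, and from IRF1 by 0.61 and 0.67. Among the nearest to B2M were CD53, a membrane protein of leukocytes, at 0.34, and the mitochondrially encoded COX1 at 0.36. The 3 nearest to PSMB8 were the mitochondrially encoded ATP6, COX3 and ND4, at 0.35, 0.36 and 0.37, and the mitochondrial share of the libraries is given above. IRF1 had no near neighbour, with SLC25A4, an ADP/ATP carrier, at 0.48, the clotting factor gene F8 at 0.50 and LYN, a kinase of blood cells, at 0.51. For IDO1 the nearest were ITGB6 at 0.98, PDXK at 1.07 and NFKBIA, an inhibitor of NF-kappa-B, at 1.10. The median over the 473 genes was 0.97 for B2M, 1.03 for PSMB8, 0.89 for IRF1 and 1.67 for IDO1.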

How the data were processed

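Raw counts per gene came in 1 table that the authors deposited, whose 12 columns of total counts were matched to samples through their library names. Per the labels' protocols, the kit was QIAseq Stranded mRNA, read as pairs of 75 bases. Not given in the sources used here: aligner, counter, build and any use of strand in counting. Overlapping or near-identical genes may share reads, and no coordinates or sequences are given.

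In R 4.3.3, filterByExpr of edgeR 4.0.16 kept 13065 genes, which were scaled by TMM. A quasi-likelihood model (glmQLFit, robust) of the 3 groups was fitted to all 12 libraries, and p-values were adjusted by Benjamini-Hochberg over all genes. SE was taken as log2 change over root F, log2 CPM used a prior count of 2, and intervals are 95%. Intervals of summed counts are exact binomial ones and cover counting error only. Steps were tested on simulated data. No library repeats another: chi-square per gene was at least 25.3 within groups.

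The genes and the lists (352 symbols, of which 73 matched a name and 47 were tested) were chosen with earlier results of these data known. Text names the 4 genes, tested list members and the 3 nearest patterns of each gene, of which 2 genes are not reported here. Alternatives were other scalings, no filter, DESeq2 1.42.0, only the groups compared, left-out libraries and a replicate block.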

Additional observations from a re-analysis of the deposited data

Results flagged for a closer look

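PSMB8 in fetal 2 stood apart from its group, at 22.7 CPM against 16.4 to 16.9 CPM in the other three fetal libraries. The 12 sets of 4 libraries (4 genes in 3 groups) were each searched for such a gap, and this was the 1 found. The gap was 0.918 of the whole range of the 4 libraries, above the 95% critical value for 4 libraries, which chance passes in about 1 of 20 sets.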

How the results depend on the processing

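Over 16 alternatives per comparison, B2M kept both calls against fetal libraries, and PSMB8 that of shunt against fetal. With library totals IRF1 in shunt against fetal was 0.52 and not called, beside a median of all genes of -1.02. On the same scaling B2M was -0.23 and IDO1 -0.39 in shunt against control, beside a median of -0.59. Without shunt 1 and shunt 2, B2M was -0.072 and IDO1 -0.68 in shunt against control, IDO1 lost its call in shunt against fetal at 2.34, and PSMB8 and IDO1 passed in control against fetal at 0.88 and 3.02. They passed there too with only the groups compared, at 0.87 and 3.02. By the DESeq2 Wald test PSMB8 passed in shunt against control at 1.14, and IDO1 in control against fetal at 3.03. Leaving out 1 library gave 0.80 to 1.35 for PSMB8 and -0.53 to 1.34 for IDO1 in shunt against control, and 2.48 to 4.09 and 2.11 to 3.67 for IDO1 in shunt against fetal and control against fetal. The cause was not tested.

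The number of genes called varied more. For shunt against control it was 522, or 1981 by DESeq2, 4 with only the groups compared and 64 without shunt 1 and shunt 2. Leaving out 1 library gave 6 to 2169, with 8, 6 and 9 without control 1, control 2 and control 4, and 36, 23, 1784 and 2169 without shunt 1, shunt 2, shunt 3 and shunt 4. For shunt against fetal it was 2048, or 7933 with library totals, 1073 with only the groups compared and 1314 without shunt 1 and shunt 2. Leaving out 1 library gave 957 to 2855, with 963, 1141 and 957 without fetal 1, fetal 2 and fetal 4, and 1226 without shunt 2. For control against fetal it was 675, or 1248 by DESeq2, 1913 with only the groups compared and 1672 without shunt 1 and shunt 2. Leaving out 1 library gave 259 to 530, with 259 (fetal 1 left out), 311 (fetal 2), 364 (fetal 4), 378 (control 1), 372 (control 2) and 273 (control 4).

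The labels do not say that replicate numbers pair libraries, and deviations of same-numbered libraries correlated at -0.19 to 0.15, with 2 of 12 libraries closest to their own number. With the replicate block 61 genes were called in shunt against control, and IDO1 in shunt against fetal was 3.39 and not called. The block changed no other call of the 4 genes. Counts of IDO1, 1 to 10 in each fetal library, limit what its level can show.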

Other observations

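Shunt 4, the library with the highest IRF1 level, also held most counts of several inflammatory genes, which were picked out after their values were seen. IL6, the gene of interleukin 6, had 7, 0, 3 and 720 counts in shunt 1 to 4, against 3 in sum over the control libraries, all in control 3, and 0 over the fetal libraries. IL1B had 1, 6, 13 and 92 counts in shunt 1 to 4, against 1 to 12 in control and 6 to 30 in fetal libraries. CXCL8, a chemokine of neutrophils, had 33 counts in shunt 4 and 0 in the other shunt libraries, against 4 in sum over control and 5 over fetal libraries. Not all genes of these lists peaked there. IL1A had 14 counts in shunt 3 and 0 in the other shunt libraries. IL18 was highest of the shunt group in shunt 3, at 31 counts and 0.942 CPM, and CXCL10 had 3, 0, 2 and 0 counts in shunt 1 to 4. ICAM1, an adhesion molecule for leukocytes, stood at 14.3 CPM in shunt 4 and at 0.793 to 2.25 CPM in shunt 1 to 3, against 3.20 to 6.22 CPM in control and 1.40 to 4.38 CPM in fetal libraries. B2M and PSMB8 in shunt 4, at 239.6 and 33.4 CPM, lay among the control libraries.

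The antiviral genes ISG15 and MX1 were highest in other libraries. Within the shunt group ISG15 was highest in shunt 3 at 15.3 CPM, against 2.47 to 5.60 CPM in the other shunt libraries, and MX1 at 24.6 CPM against 4.84 to 16.2 CPM. In the control group both were highest in control 3, at 8.94 and 30.7 CPM, which also had the highest control level of B2M and PSMB8, at 289 and 43.5 CPM. No test was made of these single libraries.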
